A study of Mus musculus with 8 samples.

Results

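The 34 genes described here cover how a cell makes, senses, takes up and exports cholesterol. They were chosen by name, as genes of the pathway, with earlier results of these data known: 19 enzymes of cholesterol synthesis, 6 sterol sensors and regulators, and 9 genes of uptake, transport within the cell, storage and efflux. All 34 were found by symbol among the 49315 genes of the count table, and all 34 passed the filter on low counts that left 16180 genes for testing. The measurements are RNA-seq read counts from whole-tissue RNA of hearts of C57BL/6 mice, an inbred laboratory strain, taken at 8 weeks of age. The groups were 4 libraries from males and 4 from females, with no treatment or allele named, and the question was how the cardiac transcriptome differs by sex. Trizol was used to isolate the RNA, and the Illumina TruSeq RNA kit to build the libraries. The labels name neither the animal behind each library nor the region of the heart, so p-values measure the spread between these libraries, which may be technical.

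Cholesterol is built from acetyl-CoA through mevalonate, isoprenoid units, squalene and lanosterol. When sterol in the membrane of the endoplasmic reticulum is low, SCAP escorts the transcription factor SREBP-2, the product of Srebf2, to the Golgi apparatus for cleavage, and the freed factor raises transcription of the synthesis enzymes, while the INSIG proteins hold the complex back when sterol is plentiful. When oxysterols accumulate, the liver X receptors, encoded by Nr1h2 and Nr1h3, raise transcription of the exporters Abca1 and Abcg1 and of Mylip, whose product marks the low-density lipoprotein receptor for degradation.

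Total counts were 39612848 to 47097765 in the male libraries and 32746054 to 35467832 in the female libraries, so 1 count was worth 0.0218 to 0.0302 counts-per-million (CPM) units, on library sizes scaled by the trimmed mean of M-values. The sex labels matched the data: Xist, the RNA that silences one X chromosome in females, averaged 0.277 ± 0.0669 CPM in males and 192 ± 11.6 CPM in females, and the Y-linked Ddx3y averaged 54.3 ± 3.78 CPM in males and 0.0212 ± 0.0142 CPM in females (SD, n = 4 each). The 8 cardiomyocyte markers summed to 78800 to 87700 CPM in males and 84500 to 85800 CPM in females. Male replicate 4 stood apart in the 6 atrial markers, at 475 CPM against 2370 to 2790 CPM in the other male and 2620 to 2870 CPM in the female libraries, and male replicate 1 in the 7 macrophage markers, at 624 CPM against 335 to 370 CPM in the other male and 290 to 370 CPM in the female libraries. Female replicate 2 stood apart in the 4 erythroid markers, at 492 CPM against 2250 to 6820 CPM in the male and 2500 to 7930 CPM in the other female libraries.

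Promoter windows from RefSeq on GRCm38.p6, each 300 bases long and lying mostly upstream of the annotated start, were matched for 27 of the 34 genes. RefSeq starts can differ from those of the deposited gene models. SREBP proteins bind sterol regulatory elements and act beside the factor NF-Y, which binds CCAAT. Windows are shown for Srebf2 and the sterol demethylase Cyp51, whose male and female values do not overlap, and for the mevalonate-pathway enzymes Hmgcs1 and Acat2, whose windows hold the SREBP-type letters CACNCCAC. Capitals mark each match to CACNCCAC or CCAAT on either strand, so that a match on the other strand reads as the reverse complement. They lie at chr15:82147019-82147318 on the plus strand for Srebf2, chr13:119690101-119690400 on the plus strand for Hmgcs1, chr17:12960676-12960975 on the minus strand for Acat2 and chr5:4104648-4104947 on the minus strand for Cyp51.
Srebf2: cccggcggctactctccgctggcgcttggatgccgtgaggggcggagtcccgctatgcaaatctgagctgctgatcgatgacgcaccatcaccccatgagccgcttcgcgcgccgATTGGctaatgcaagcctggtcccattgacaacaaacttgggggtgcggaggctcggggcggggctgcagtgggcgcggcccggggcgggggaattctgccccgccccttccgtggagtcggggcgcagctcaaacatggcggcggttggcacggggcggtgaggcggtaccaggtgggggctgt
Hmgcs1: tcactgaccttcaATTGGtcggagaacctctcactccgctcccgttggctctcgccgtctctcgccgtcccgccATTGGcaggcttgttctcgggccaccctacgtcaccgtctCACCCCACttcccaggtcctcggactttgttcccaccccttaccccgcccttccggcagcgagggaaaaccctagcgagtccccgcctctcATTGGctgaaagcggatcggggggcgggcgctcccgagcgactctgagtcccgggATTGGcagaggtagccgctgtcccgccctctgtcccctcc
Acat2: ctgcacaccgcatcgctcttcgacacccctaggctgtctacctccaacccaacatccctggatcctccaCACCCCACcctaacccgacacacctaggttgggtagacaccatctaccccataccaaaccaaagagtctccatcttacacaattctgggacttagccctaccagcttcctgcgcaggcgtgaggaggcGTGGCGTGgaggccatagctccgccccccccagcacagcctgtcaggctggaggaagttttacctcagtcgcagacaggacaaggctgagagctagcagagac
Cyp51: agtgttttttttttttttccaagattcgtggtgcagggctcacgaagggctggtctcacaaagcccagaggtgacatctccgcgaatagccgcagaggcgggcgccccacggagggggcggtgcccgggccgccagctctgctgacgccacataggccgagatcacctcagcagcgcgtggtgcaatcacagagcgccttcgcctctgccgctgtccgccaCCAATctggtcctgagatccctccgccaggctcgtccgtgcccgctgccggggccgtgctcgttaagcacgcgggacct

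Hmgcs1 carried 1 CACNCCAC and 4 CCAAT matches, Acat2 carried 2 CACNCCAC and no CCAAT match, and Srebf2 and Cyp51 carried 1 CCAAT match each. CCAAT was found in the windows of 21 of the 27 matched genes, among them 15 of 16 synthesis enzymes, against 41.1% of the 27025 genes with a window. The GC-box letters GGGCGG were found in 23 of 27, against 38.2% of all genes. CACNCCAC was found in 3 of 27 (Acat2, Hmgcs1 and Insig1), against 7.12% of all genes, and the longer TCACNCCAC, which contains it, in Hmgcs1 alone, against 1.44%. The full-length sterol regulatory element, the E-box TCACGTGA and the direct repeat that liver X receptors bind were found in none of the 27 windows and in 0.0999%, 1.12% and 0.0148% of all genes in that order. Each of these last motifs was searched as a fixed string, so variants of the element or of the repeat were not counted. Strings this rare among all genes would be missing from most sets of 27 windows. Finding none here therefore cannot show that these promoters lack such elements. All the motif counts are matches of letters in short windows and say nothing of binding.

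The Srebf2 gene also hosts a microRNA, miR-33, which is known to repress Abca1. Its mature 5′ arm, from RefSeq on GRCm38.p6 (chr15:82198127-82198147, plus strand), lies inside Srebf2 and outside its exons. It is shown with its seed, bases 2 to 8, in capitals, above the stretch of the Abca1 3′ UTR (GRCm38, chr4:53033786-53033809, minus strand, GENCODE M21 transcript) in which capitals mark the matching letters CAATGCA.
mmu-miR-33-5p: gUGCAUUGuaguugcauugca
Abca1 3′ UTR site: tCAATGCAATGCActtCAATGCAa

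The Abca1 stretch holds 3 matches, the first and second overlapping each other, within a 3′ UTR of 3156 bases. Abcg1 had 2 matches and Nsdhl had 1, so 3 of the 34 genes held the site, against 7.12% of the 21020 genes with an annotated 3′ UTR. The precursor gene Mir33 had 0 counts in all 8 libraries, below a limit of 3 counts, which is 0.0655 to 0.0906 CPM (counting error only). A library of this kind is not built to capture small RNAs.

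None of the 34 genes differed between males and females at an adjusted p below 0.05 in edgeR's quasi-likelihood test with Benjamini-Hochberg adjustment over all 16180 genes, of which 613 (3.79%) were called, 329 higher (2.03%) and 284 lower (1.76%) in males. The DESeq2 Wald test, limma-voom and limma on the normalized values called 0 of the 34 as well. At an unadjusted p below 0.05 there were 8 of the 34 in edgeR, against 19.5% of all genes, and 7, 8 and 8 by the other tools in the same order. Without male replicate 3 there were 4 of the 34, and 315 genes called in all. In edgeR these 8 (Acat2, Hmgcs1, Idi1, Sqle, Cyp51, Ebp, Srebf2 and Lrp1) all had a negative log2 fold change of male over female, a class that held 9.39% of all genes. In 3 genes, Sqle, Cyp51 and Srebf2, all male values lay below all female values, against 5.66% of all genes with males below and 12.0% with no overlap in either direction.

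**Figure D1:**
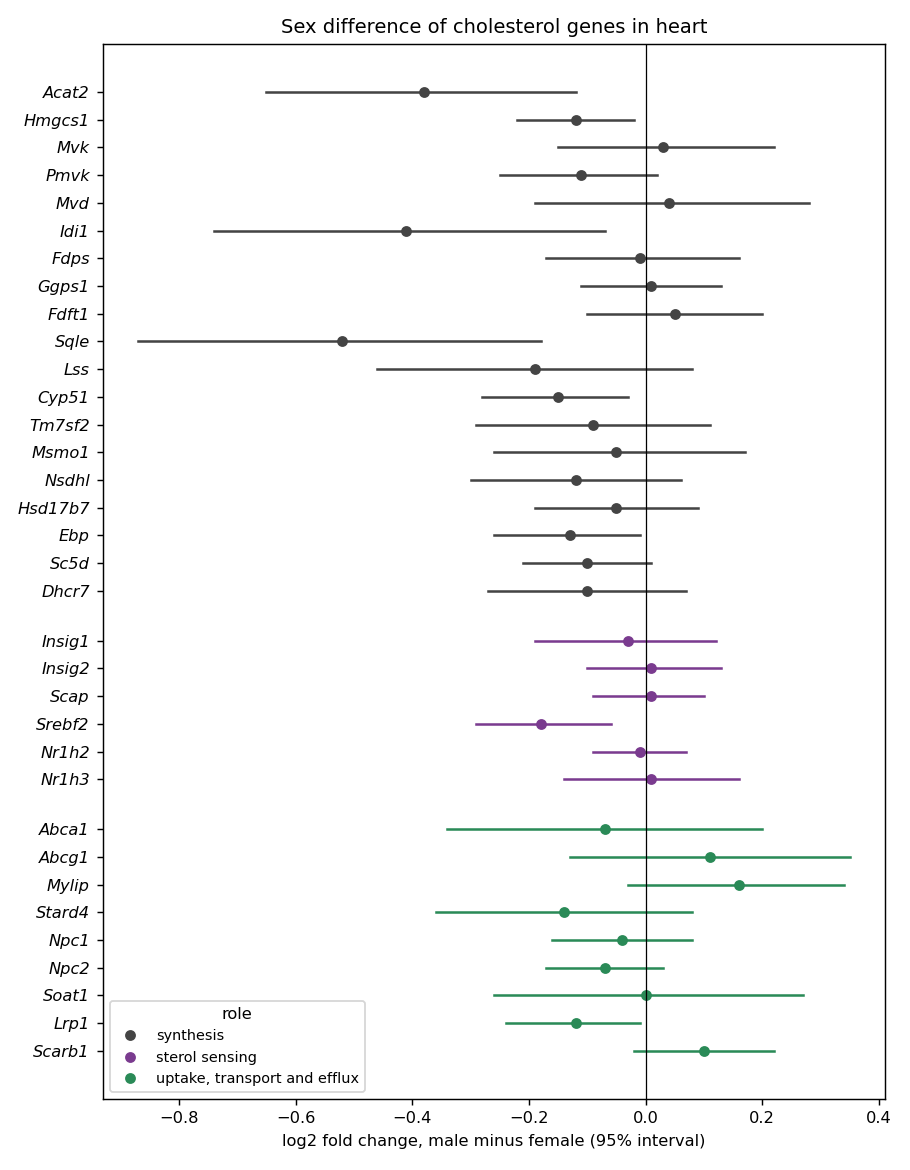
Log2 fold change of male over female for each of the 34 genes with its 95% interval, grouped by role. No gene passed the threshold, and the values span -0.52 (Sqle) to 0.16 (Mylip).

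A negative log2 fold change was found in 15 of 19 synthesis enzymes, in 3 of 6 sterol sensors and in 5 of 9 genes of uptake, transport and efflux, against 50.3% of all genes tested. The median log2 fold change was -0.10 over the synthesis enzymes (range -0.52 to 0.05), 0 over the sensors (-0.18 to 0.01) and -0.04 over uptake, transport and efflux (-0.14 to 0.16), beside 0 over all genes tested. For 26 of the 34 genes the 95% interval lay within 0.3 of 0 on the log2 scale, and for 31 within 0.5.

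Among the enzymes of the mevalonate pathway, Acat2, the thiolase that joins acetyl-CoA units, had 3.96, 4.39, 3.7 and 3.95 CPM in the 4 male libraries and 4.35, 6.03, 5.84 and 4.57 CPM in the 4 female libraries. The groups overlapped at 1 value, where male replicate 2 lay above female replicate 1. The log2 fold change was -0.38 (95% interval -0.65 to -0.12, adjusted p = 0.11). Acat2 shares near-identical sequence with Acat3 (97.698% over 1477 bases), so its counts are uncertain.

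Hmgcs1, which makes the HMG-CoA that feeds mevalonate, had 33.1, 33.8, 32.1 and 35.9 CPM in males and 35.5, 38.6, 36.1 and 36.5 CPM in females. Male replicate 4 lay above female replicate 1, and all other male values lay below all female values. Its log2 fold change was -0.12 (-0.22 to -0.02, adjusted p = 0.16), and 12.1% of its GENCODE M21 exonic bases overlap an antisense gene. The kinases and decarboxylase that follow, Mvk, Pmvk and Mvd, had log2 fold changes of 0.03, -0.11 and 0.04, all with overlapping groups.

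Idi1, the isomerase that supplies the second isoprenoid building block, rested on 66 to 95 counts per library. It had 1.6, 2.08, 1.59 and 1.7 CPM in males and 2.39, 1.89, 2.15 and 2.84 CPM in females, where only male replicate 2 lay above a female value. The log2 fold change was -0.41 (-0.74 to -0.07, adjusted p = 0.17). Idi1 has near-identical pseudogene copies, and so have Fdps and Ggps1, the synthases of the longer isoprenoids, at log2 fold changes of -0.01 and 0.01. Fdps also shares 26.7% of its exonic bases with the gene Gm43738 on the same strand. Fdft1, squalene synthase, was at 0.05 (-0.10 to 0.20), with 18.3% of its GENCODE M21 exonic bases shared with Ctsb on the other strand. It too has a near-identical pseudogene copy (97.438% over 1249 bases).

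Sqle, the squalene epoxidase that commits squalene to sterols and a rate-limiting step of the pathway, had the largest fold change of the 34. It is annotated as ENSMUSG00000022351 at chr15:59315077-59331192 on the plus strand of GRCm38. It had 1.7, 1.29, 1.2 and 1.09 CPM in males and 1.78, 1.87, 1.82 and 2.12 CPM in females, on 50 to 71 counts per library. All 4 male values lay below all 4 female values, but male replicate 1 came within 0.1 CPM of the lowest female value. The log2 fold change was -0.52 (-0.87 to -0.18, adjusted p = 0.093). Without male replicate 1 it was -0.67 with an adjusted p of 0.037, so 1 library decides that call.

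Of the enzymes that turn squalene epoxide into cholesterol, Cyp51, the lanosterol demethylase, had 13.7, 12.5, 12.6 and 13.2 CPM in males and 15.4, 14, 14.4 and 14 CPM in females. It is ENSMUSG00000001467, at chr5:4081145-4104746 on the minus strand, and shares 3.76% of its exonic bases with Akap9 on the other strand. The male values lay below all the female values, by a gap smaller than the spread within either group. Its log2 fold change was -0.15 (-0.28 to -0.03, adjusted p = 0.17). Ebp, the sterol isomerase encoded on the X chromosome, had 12.4, 12.3, 11.9 and 12.7 CPM in males and 13.7, 13.4, 12.7 and 14.2 CPM in females, with male replicate 4 and female replicate 3 at the same level. Its log2 fold change was -0.13 (-0.26 to -0.01, adjusted p = 0.22).

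The other late enzymes had log2 fold changes of -0.19 for Lss, which closes the sterol rings, -0.09 for the sterol reductase Tm7sf2, -0.05 for the methyl oxidase Msmo1, -0.12 for the X-linked dehydrogenase Nsdhl, -0.05 for Hsd17b7, -0.10 for the desaturase Sc5d and -0.10 for Dhcr7, the last reductase of one branch. All 7 had groups that overlapped, with adjusted p-values of 0.29 to 0.84 and intervals that contained 0. Tm7sf2 shares 12.1% of its GENCODE M21 exonic bases with Vps51 on the same strand. In Msmo1, female replicate 2 stood at 5.6 CPM, against 4.6 to 4.66 CPM in the other female libraries.

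**Figure D2:**
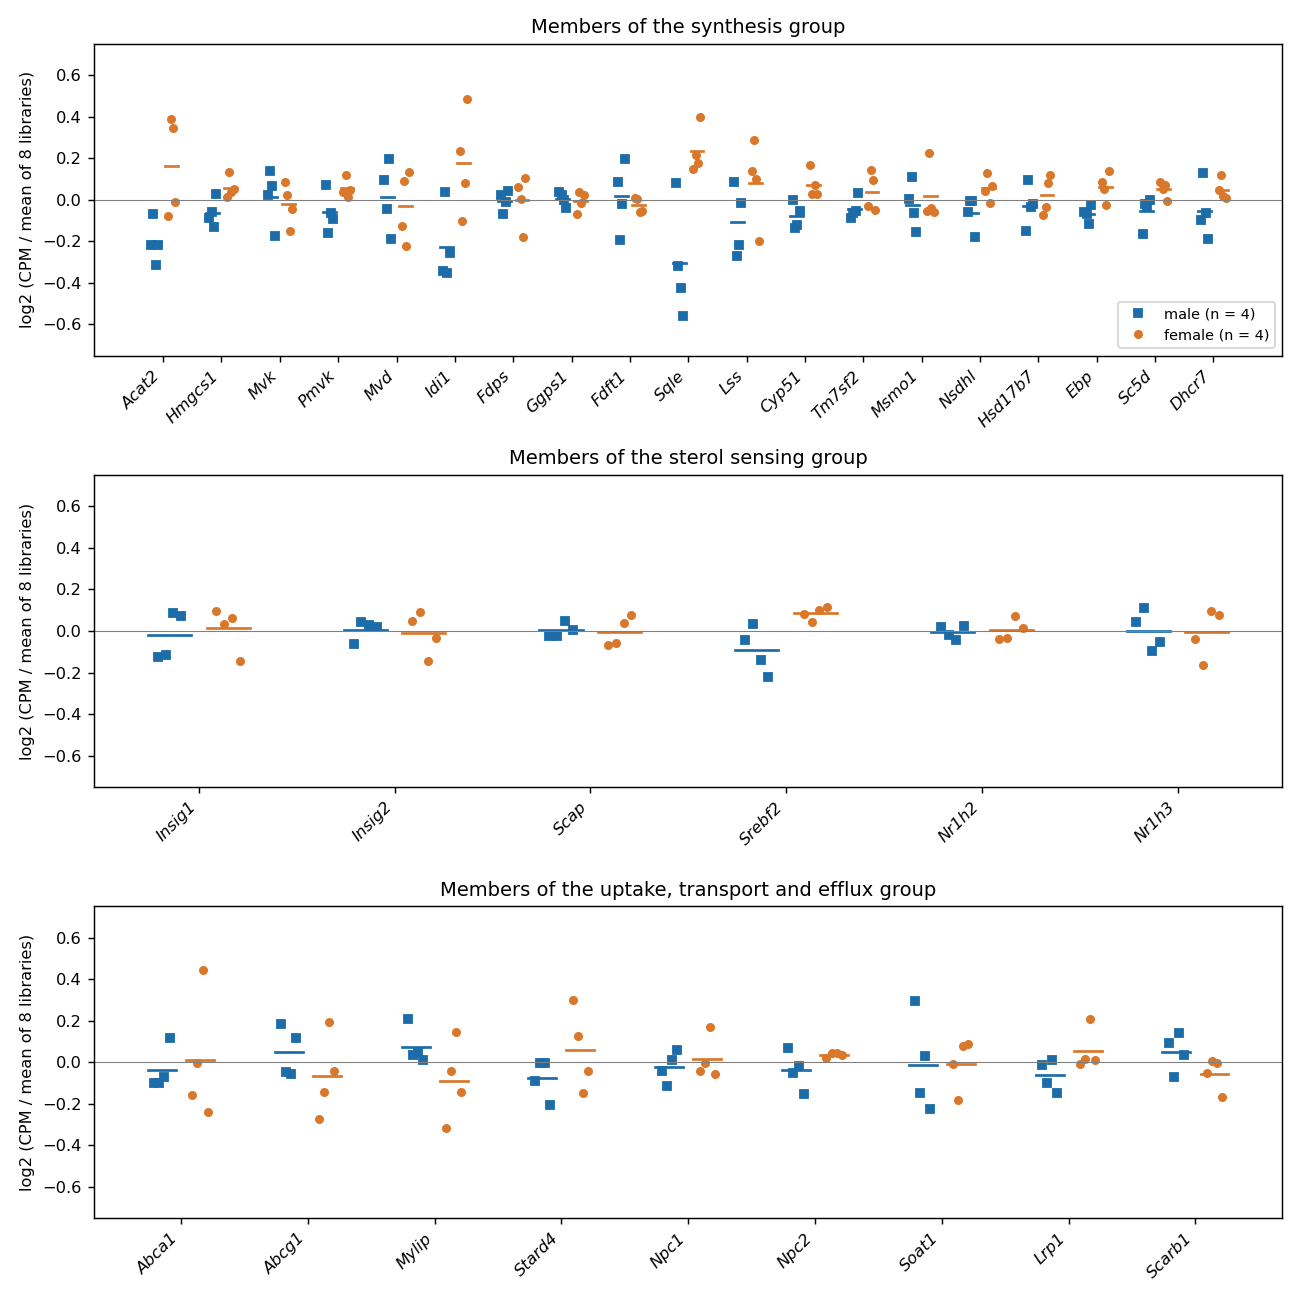
Log2 of CPM over the mean of the 8 libraries for each of the 34 genes, with males (squares) left of females (circles) and bars at the group means. The values of Sqle, Cyp51 and Srebf2 do not overlap between the sexes, and Abca1 has 1 female library, at 49.2 CPM, above all others.

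Among the sterol sensors, Srebf2, which encodes SREBP-2, had 37.7, 39.8, 35.3 and 33.3 CPM in males and 41.1, 40.1, 41.7 and 42.1 CPM in females. It is ENSMUSG00000022463, at chr15:82147266-82205376 on the plus strand. All 4 male values lay below all 4 female values, and the male values varied more, with a coefficient of variation of 7.81% against 2.15% in females. The log2 fold change was -0.18 (-0.29 to -0.06, adjusted p = 0.093). Without male replicate 2 it was -0.22 with an adjusted p of 0.042, so this call also turns on 1 library.

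The partners of SREBP-2 had log2 fold changes near 0. Scap averaged 39.5 ± 0.925 CPM in males and 39.3 ± 1.92 CPM in females, a log2 fold change of 0.01 (-0.09 to 0.10), with 13.2% of its exonic bases under a gene on the other strand. Insig1 and Insig2, which retain the complex, were at -0.03 (-0.19 to 0.12) and 0.01 (-0.10 to 0.13). The liver X receptor genes Nr1h2 and Nr1h3 were at -0.01 (-0.09 to 0.07) and 0.01 (-0.14 to 0.16).

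Of the efflux and liver X receptor target genes, Abca1, the exporter that loads cholesterol onto apolipoprotein A-I, had 33.8, 33.8, 34.4 and 39.2 CPM in males and 32.4, 36.1, 49.2 and 30.6 CPM in females. Male replicate 4 was the highest male library and female replicate 3 the highest of all 8, and the groups overlapped. The log2 fold change was -0.07 (-0.34 to 0.20, adjusted p = 0.80). Abcg1, the exporter to mature high-density lipoprotein, averaged 5.39 ± 0.45 CPM in males and 4.99 ± 0.698 CPM in females, a log2 fold change of 0.11 (-0.13 to 0.35).

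Mylip had 27.1, 24, 24.2 and 23.6 CPM in males and 18.8, 22.8, 25.9 and 21.2 CPM in females. Only female replicate 3 reached into the male range. Its log2 fold change of 0.16 (-0.03 to 0.34, adjusted p = 0.35) was the highest of the 34. Scarb1, the receptor for high-density lipoprotein, averaged 35.1 ± 2.22 CPM in males and 32.7 ± 1.77 CPM in females, a log2 fold change of 0.10 (-0.02 to 0.22).

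Lrp1, a large endocytic receptor of the lipoprotein receptor family, was the most abundant of the 34 in CPM, at 228, 215, 232 and 208 CPM in males and 229, 233, 266 and 232 CPM in females. Female replicate 3 stood above the rest, and the groups overlapped by a narrow margin. The log2 fold change was -0.12 (-0.24 to -0.01, adjusted p = 0.23). Npc1 and Npc2, which pass cholesterol out of the lysosome, were at -0.04 (-0.16 to 0.08) and -0.07 (-0.17 to 0.03), the sterol carrier Stard4 at -0.14 (-0.36 to 0.08), and Soat1, which esterifies cholesterol for storage, at 0.00 (-0.26 to 0.27).

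The synthesis enzymes and the uptake, transport and efflux genes were also compared library by library, as the mean over genes of log2 CPM relative to each gene's mean over the 8 libraries. For the 19 synthesis enzymes this was -0.03, -0.04, -0.08 and -0.09 in males and 0.04, 0.11, 0.03 and 0.07 in females, and their summed CPM was 207 to 214 in males and 217 to 227 in females, without overlap. For the 9 uptake, transport and efflux genes it was 0.07, -0.06, 0.02 and -0.04 in males and -0.05, -0.01, 0.13 and -0.06 in females, and the summed CPM overlapped at 446 to 477 in males and 463 to 534 in females. Synthesis minus uptake, transport and efflux was -0.11, 0.02, -0.10 and -0.05 in males and 0.10, 0.12, -0.10 and 0.12 in females. Female replicate 3 lay among the male libraries on this difference, and the other 3 female libraries lay above all 4 males. Female replicate 2, the library with the lowest erythroid sum, had the highest synthesis mean and sum and was the highest female library for 9 of the 19 synthesis enzymes; without it their median log2 fold change was -0.09.

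Female replicate 3 was the highest female library for 6 of the 9 uptake, transport and efflux genes (Abca1, Abcg1, Mylip, Npc1, Npc2 and Lrp1) and for the receptors Nr1h2 and Nr1h3, and for 0 of the 19 synthesis enzymes. Without it, the median log2 fold change of the 9 genes was 0.03.

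**Figure D3:**
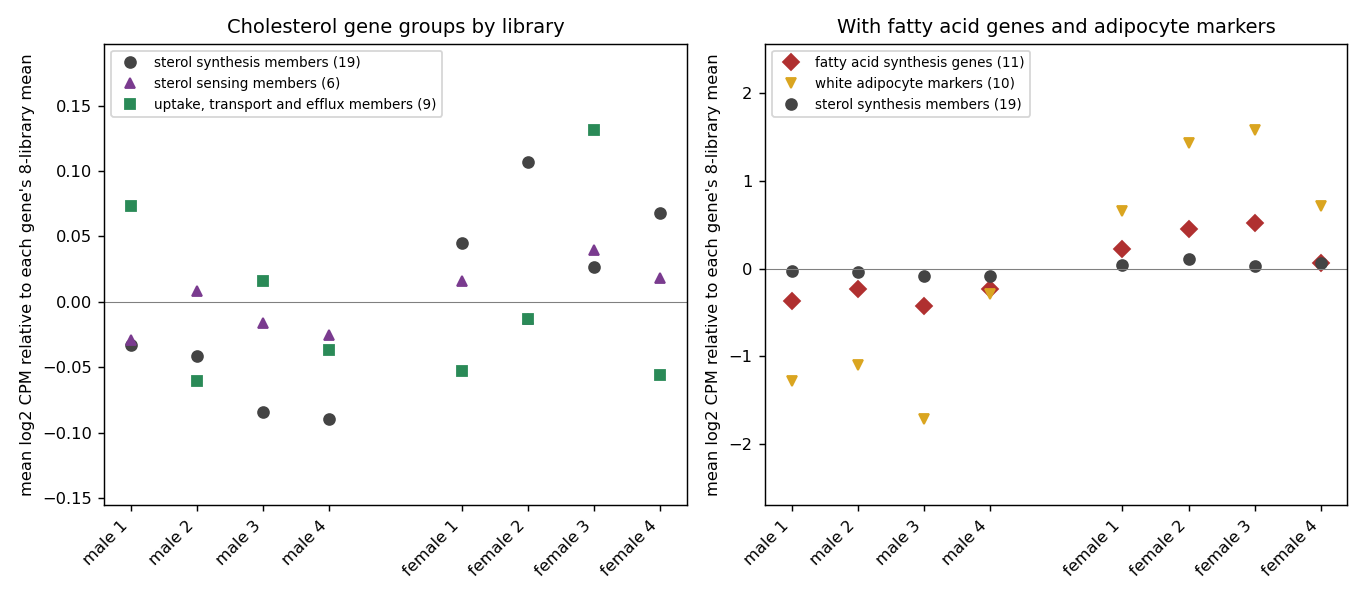
Mean log2 CPM relative to each gene's mean, by library, with males left of females: on the left panel the 3 gene groups, on the right panel the synthesis group beside fatty acid synthesis genes and white adipocyte markers. Synthesis values are below 0 in all 4 male libraries and above 0 in all 4 female libraries, and female replicate 3 is highest for uptake, transport and efflux and for the adipocyte markers.

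Levels were compared between genes per length, as CPM divided by the summed length of annotated exons in kilobases (RPKM), averaged over the 8 libraries. The median level was 3.11 RPKM over the synthesis enzymes, 8.06 over the sensors and 3.99 over uptake, transport and efflux, beside 2.9 over all genes tested. Npc2 (21.4 RPKM), Nr1h2 (19.5), Insig2 (13.3), Lrp1 (13.0) and Fdft1 (11.9) were the highest of the 34, and Sqle (0.29), Lss (0.346), Soat1 (0.525) and Idi1 (0.579) the lowest. Within the pathway, Hmgcs1 at 10.9 RPKM was 37.6 times Sqle. Insig2 was 2.4 times Insig1 and Nr1h2 was 2.34 times Nr1h3 per length. The median coefficient of variation between libraries was 6.87% in males and 6.39% in females for synthesis, and 6.45% in males and 8.46% in females for uptake, transport and efflux. Because the length sums all annotated exons, these levels depend on the annotation.

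**Figure D4:**
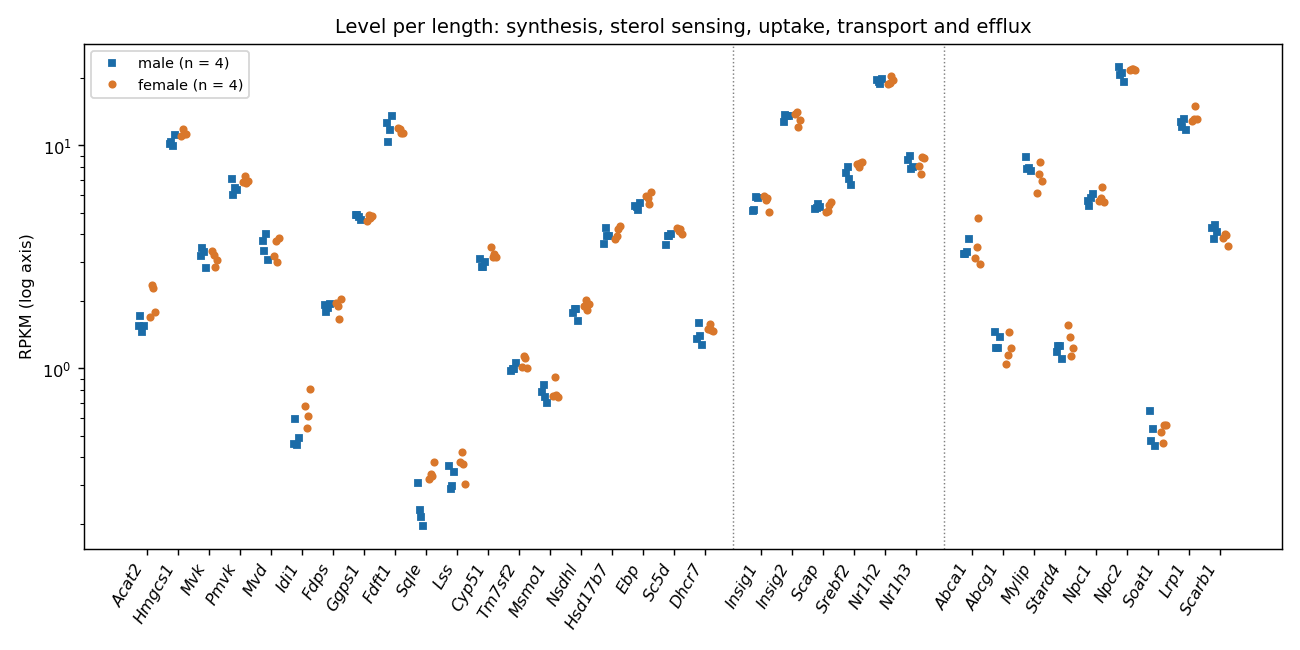
RPKM of the 34 genes in each library on a log axis, grouped by role (dotted lines), with males (squares) left of females (circles). Npc2 is highest at a mean of 21.4 RPKM and Sqle lowest at 0.29 RPKM.

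7 lists of neighbouring pathway genes were read from the same fit, beside 3.79% of all genes called. Fatty acid synthesis genes under SREBP control were the list with the most calls: 5 of 11 were lower in males and 0 higher, with a median log2 fold change of -0.32. Fasn, fatty acid synthase, had 45.3, 52.6, 39.5 and 50.1 CPM in males and 119, 152, 166 and 81.4 CPM in females, with no overlap (log2 fold change -1.47, SE 0.18, adjusted p = 0.0014). The desaturase Scd1 averaged 29.9 ± 7.56 CPM in males and 151 ± 60.2 CPM in females (-2.33, SE 0.27, adjusted p = 0.00097), and the elongase Elovl6 1.46 ± 0.33 CPM in males and 5 ± 2.13 CPM in females (-1.78, SE 0.29, adjusted p = 0.0074). Acaca, acetyl-CoA carboxylase, was lower in males at a log2 fold change of -0.71 (adjusted p = 0.018), and Scd2 at -0.36 (adjusted p = 0.047). Fasn, Scd1 and Elovl6 were called in all 8 fits that left out a library, while Acaca was not called without male replicate 3 (adjusted p = 0.056) or without female replicate 2 (0.051), and Scd2 was called in 2 of those 8.

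Marker lists of cell types were read in the same way, beside 3.79% of all genes called. Of 10 white adipocyte markers 9 were called lower in males, with a median log2 fold change of -2.34, and their summed CPM was 27 to 78.3 in males and 135 to 272 in females, with none at 0. Of 5 brown adipocyte markers 3 were called lower in males, at sums of 29.8 to 40.7 CPM in males and 44.7 to 137 CPM in females. Most of the male sums came from Cidea, which was not called (log2 fold change -0.34, adjusted p = 0.14). Ucp1 averaged 1.17 ± 1.65 CPM in males and 40 ± 32.8 CPM in females (-5.16, adjusted p = 0.0077). Of 7 hepatocyte markers 3 were called higher in males, at sums of 48.3 to 52 CPM in males and 34.8 to 43 CPM in females. Cyp2e1 went the opposite way to the other 6, without a call (log2 fold change -0.84, adjusted p = 0.084). It averaged 7.17 CPM in males and 12.8 CPM in females. Of 6 fibroblast markers 1, Lum, was called lower in males (log2 fold change -0.66, adjusted p = 0.00028), and all 6 had a negative log2 fold change, with a median of -0.15. Their sums, at 750 to 854 CPM in males and 881 to 895 CPM in females, did not overlap. Among 6 mural cell markers, Acta2 was called lower in males (log2 fold change -0.39, adjusted p = 0.032). Rgs5 was called higher (0.18, adjusted p = 0.017). Of 7 endothelial markers 1, Tie1, was called higher in males (0.2, adjusted p = 0.045). No marker of the other lists was called. All 7 macrophage and 4 erythroid markers had a positive log2 fold change. Male replicate 1 weighed on the macrophage values, with a sum of 624 CPM against 290 to 370 CPM in the other libraries. The erythroid sums ran from 492 to 7930 CPM within the females alone. All 6 atrial and 4 Schwann cell markers had a negative log2 fold change. Male replicate 4 weighed on the atrial values, with a sum of 475 CPM against 2370 to 2870 CPM in the other libraries. In bulk tissue fewer cells of a type and less RNA per cell cannot be told apart, and the part of these markers in the fatty acid and cholesterol gene values was not tested. Female replicate 3 had the highest white adipocyte sum (272 CPM) and the lowest synthesis-enzyme sum of the female libraries (217 CPM). Female replicate 2 had the next highest white adipocyte sum (247 CPM) and the highest synthesis-enzyme sum (227 CPM). Among the males, replicate 4 had the highest white adipocyte sum (78.3 CPM); its synthesis enzymes had the highest sum (214 CPM) but the lowest mean relative log2 CPM (-0.09), so the order of the male libraries depends on the measure.

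In the other lists calls were few. Of 12 genes of SREBP processing and sterol-regulated degradation, 1 was lower in males and 0 higher: Fbxw7, whose product targets nuclear SREBP for degradation, averaged 53.6 ± 2.42 CPM in males and 62.9 ± 2.82 CPM in females (log2 fold change -0.23, SE 0.04, adjusted p = 0.017, and 0.056 without male replicate 3). Srebf1, the fatty-acid counterpart of Srebf2, was chosen for mention after its values were seen. It averaged 39.8 ± 3.88 CPM in males and 49.4 ± 5.11 CPM in females, at -0.31 and an adjusted p of 0.054, with overlapping groups. With all libraries kept it was called by the DESeq2 Wald test (adjusted p = 0.0043) and by edgeR with no filter, and with edgeR it was also called without male replicate 2 (0.03) and without female replicate 4 (0.039).

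Of 19 genes of intracellular sterol transport and ester hydrolysis, 1 was higher in males and 0 lower. This was Osbpl9, a member of the oxysterol-binding protein family, at 99.3 ± 2.45 CPM in males and 90.5 ± 0.981 CPM in females (log2 fold change 0.13, adjusted p = 0.045), and it was called in 0 of the 8 fits that left out a library. Of 8 other sterol and phospholipid ABC transporters and high-density lipoprotein factors, Abca8a was lower in males, at 74.9 ± 4.38 CPM in males and 85.2 ± 2.19 CPM in females (-0.19, adjusted p = 0.044), and was called in 1 of those 8 fits. In edgeR no gene was called among 13 of the isoprenoid branch (smallest p for Nus1, 0.14, adjusted p = 0.11), 12 other lipoprotein receptors and adaptors (Dab2, -0.14, adjusted p = 0.15) and 6 tested of 8 oxysterol and sterol catabolism genes. In the last list Cyp27a1, which makes 27-hydroxycholesterol, averaged 26.1 ± 3.25 CPM in males and 19.8 ± 2.38 CPM in females (0.39, adjusted p = 0.052). With all libraries kept it was called by the DESeq2 Wald test and by edgeR with no filter (adjusted p = 0.003 in both), and with edgeR it was also called without male replicate 2 (0.022).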

How the data were processed

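RNA-seq of hearts from 4 male and 4 female C57BL/6 libraries was used. The authors deposited raw counts per gene for 49315 genes; Trimmomatic 0.36, STAR 2.5.2b, featureCounts of Subread 1.5.2 and GRCm38 are named per the submitters' processing notes, and the annotation version, strand setting and treatment of multi-mapping reads are not given in the sources used here. Reads of overlapping or near-identical genes therefore cannot be assigned with certainty. In the deposited normalized signal every count had been divided by its library's size factor (0.863 to 1.196, found from the values). Multiplying by that factor returned whole reads, within 0.01, for 100% of the values, and edgeR on these reads called 613 genes. No column was left unmapped.

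Counts were fitted with edgeR 4.0.16 in R 4.3.3 (trimmed mean of M-values scaling, filterByExpr with a minimum count of 10, quasi-likelihood F-test, Benjamini-Hochberg adjustment over 16180 genes, threshold 0.05), with sex as the only term and positive values higher in males. Intervals are 95% from the same fit. CPM used the scaled library sizes, and RPKM divided that by summed exon length. The scripts were tested on simulated data. Alternatives were other scalings, other filters, DESeq2 1.42.0, limma 3.58.1 (voom, and log2 of the normalized values plus 1), thinned counts, a replicate block and each library left out. Deviations from the group means in male and female libraries of the same number correlated at 0.02, -0.02, 0.05 and -0.05. No pairing by number was seen, but this check cannot exclude one. Overlaps and copies (at least 95% identity over 200 bases) were read from GENCODE M21. Its gene models can be longer than the deposited ones (for Fdft1, 4227 against 2860 exonic bases). Shared bases may therefore lie outside the models that were counted. The 34 genes and the lists were chosen with earlier results of these data known. Genes with no overlap between the sexes get values by library, and of each pathway list the called genes, or else the gene with the smallest p, are named; genes with an unadjusted p below 0.05 and those with 1 library far from the rest were added after their values were seen.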

Additional observations from a re-analysis of the deposited data

Results flagged for a closer look

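Of 68 sets of 4 libraries (34 genes in each sex), 3 held a library whose gap to its nearest neighbour exceeded Dixon's 95% critical share of the range; chance flags about 1 in 20 sets. Abca1 stood at 39.2 CPM in male replicate 4, against 33.8 to 34.4 CPM in the other males. Lrp1 stood at 266 CPM in female replicate 3, against 229 to 233 CPM in the other females. Msmo1 stood at 5.6 CPM in female replicate 2, against 4.6 to 4.66 CPM in the other females.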

How the results depend on the processing

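The count of called genes among the 34 was 0 in the 11 alternatives that kept all libraries, and 0 to 1 with a library left out: Sqle without male replicate 1 and Srebf2 without male replicate 2. The median log2 fold change ran from -0.12 to -0.09 for synthesis and from -0.07 to 0.03 for uptake, transport and efflux. Of 646 values of the 34 genes under the 19 alternatives, 592 kept the sign reported. Signs were read from values rounded to 2 decimals, so a move to or from 0 counted as a change. Genes called over the whole table numbered 613, 971 by the DESeq2 Wald test, 917 with no filter, 427 with the replicate block, and 315 to 490 in the leave-one-out fits (315 without male replicate 3, 354 without female replicate 2, 379 without female replicate 3). Genes called over the pathway lists numbered 8, 12 by the DESeq2 Wald test and 10 with no filter (Srebf1, Cyp27a1 and Acly added in both), 5 with the replicate block, which lost Osbpl9, Abca8a and Scd2, and 3 (without male replicate 3) to 8 with a library left out; the cause was not tested. The labels do not say what the replicate numbers stand for, and under that block 0 of the 34 genes were called. Sqle and Idi1 rested on fewer than 100 counts per library, which limits their precision.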
